A study of Homo sapiens with 11 samples.

Results

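The genes described here are 10 components of the proteasome, the protease that degrades ubiquitin-tagged proteins. They were taken by gene symbol from the 38557 genes of a count table and all 10 were found: the constitutive catalytic subunits PSMB5, PSMB6 and PSMB7, the immunoproteasome subunits PSMB8, PSMB9 and PSMB10, the maturation factor POMP, and the activators PSME2, PSME3 and PSME4. RNA was sequenced from MOLM-13 cells, an established human line of acute myeloid leukemia that carries a KMT2A rearrangement. All libraries came from this 1 line after exposure for 72 h: 4 to DMSO, the diluent, 4 to MI-503 at 1 µM, and 3 (replicates 1, 2 and 4) to MI-503 at 1 µM plus PR-957 (ONX-0914) at 100 nM, called the combination below. MI-503 blocks Menin, a protein that tethers KMT2A complexes to chromatin, and PR-957 inhibits the PSMB8 protein. No library with PR-957 alone was analysed here, so its effect could be read only in the presence of MI-503.

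The 20S core of the proteasome is a stack of rings, with the outer rings made of alpha subunits and the inner rings of beta subunits, of which PSMB5, PSMB6 and PSMB7 cut peptide bonds. In blood cells and under interferon, PSMB8, PSMB9 and PSMB10 can take the places of PSMB5, PSMB6 and PSMB7, respectively, which gives the immunoproteasome, known for making peptides that are presented on MHC class I. The core is opened by the 19S regulator or by the activators PA28αβ (PSME1 and PSME2), PA28γ (PSME3, in the nucleus) and PA200 (PSME4). When proteasome activity is low, the transcription factor NFE2L1 (NRF1) is known to raise genes of proteasome subunits, whereas the immunoproteasome genes are known targets of STAT and IRF factors.

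To show which of these elements lie at the start of the genes, 300 bases of RefSeq promoter sequence (GRCh38.p14, 250 bases before the annotated start to 50 after it) were searched on both strands. The strings were TGANNNNGC (a loose form of the core bound by NFE2L1-type factors), TTCNNNGAA (the STAT core), GAAANNGAAA (the IRF core) and CCAAT, where N is any base. Of the 10 genes, 8 had 1 or more promoters there, 10 promoters in all, and PSMB6 and PSMB7 had none in the table. GAAANNGAAA was found in 1 promoter each of PSMB8, PSMB10 and PSME2, in 3.57% of all 35116 promoters and in 5.26% of 38 promoters of 30 other proteasome genes. TGANNNNGC was found in promoters of PSMB5, PSMB8, PSMB9, PSME2 and PSME4, but also in 41.8% of all promoters and in 57.9% of those 38. TTCNNNGAA was found in promoters of PSMB5, PSMB8 and PSME3 (7.66% of all, 10.5% of the 38). CCAAT was found in promoters of PSMB5, PSMB9 and PSME3 (34.6% of all, 47.4% of the 38). A match is a string of letters, not a shown binding site. The 3 promoters with GAAANNGAAA, and for contrast the outer promoter of PSMB5, are given 5′ to 3′ on the strand of the gene, which is the minus strand for each, with matches to the first 3 motifs in capitals:
PSMB8, inner start, chr6:32843998-32844297: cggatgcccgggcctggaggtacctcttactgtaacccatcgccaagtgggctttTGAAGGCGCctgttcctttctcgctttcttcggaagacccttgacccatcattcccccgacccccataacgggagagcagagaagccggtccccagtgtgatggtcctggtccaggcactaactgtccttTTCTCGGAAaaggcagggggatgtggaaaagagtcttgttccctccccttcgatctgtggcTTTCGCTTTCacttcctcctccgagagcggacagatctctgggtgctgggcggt
PSMB10, chr16:67936801-67937100: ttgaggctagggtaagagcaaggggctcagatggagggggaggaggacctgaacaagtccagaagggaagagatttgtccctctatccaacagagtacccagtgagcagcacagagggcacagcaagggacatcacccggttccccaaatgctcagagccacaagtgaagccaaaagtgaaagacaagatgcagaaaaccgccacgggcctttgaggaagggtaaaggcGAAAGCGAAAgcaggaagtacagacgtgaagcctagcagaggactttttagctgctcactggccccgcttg
PSME2, chr14:24146561-24146860: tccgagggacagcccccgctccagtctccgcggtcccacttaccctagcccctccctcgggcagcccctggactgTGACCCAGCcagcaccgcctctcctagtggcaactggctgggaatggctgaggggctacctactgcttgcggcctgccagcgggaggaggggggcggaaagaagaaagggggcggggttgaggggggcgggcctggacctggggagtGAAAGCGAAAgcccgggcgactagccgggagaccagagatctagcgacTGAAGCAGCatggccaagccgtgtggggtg
PSMB5, outer start, chr14:23035171-23035470: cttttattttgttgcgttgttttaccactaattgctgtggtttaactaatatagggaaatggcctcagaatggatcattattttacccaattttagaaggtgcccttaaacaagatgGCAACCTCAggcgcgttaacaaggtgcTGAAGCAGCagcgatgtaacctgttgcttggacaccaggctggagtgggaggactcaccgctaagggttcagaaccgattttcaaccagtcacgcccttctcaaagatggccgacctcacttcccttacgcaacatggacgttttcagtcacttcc
The GAAANNGAAA match began 4 bases before the annotated start in PSMB8, 21 before it in PSMB10 and 28 before it in PSME2. The printed PSMB5 promoter held 2 matches to TGANNNNGC and none to GAAANNGAAA. The inner PSMB5 promoter, not printed, held 1 match to TGANNNNGC, 2 to TTCNNNGAA and none to GAAANNGAAA.

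Values are CPM, the counts of a gene relative to the library total (scaled with TMM factors), and FPKM, which are CPM per kilobase of exon and allow levels of different genes to be set side by side. Totals ran from 18.9 to 41.2 M counts. Combination replicate 1 stood apart: its counts differed from those of the other 2 combination libraries by 19.9 and 34.4 chi-square units per degree of freedom, whereas those 2 differed by 4.62 and pairs within DMSO or MI-503 by 1.72 to 6.02. Each of 8 myeloid leukemia markers was present at 1 CPM or more, with a sum of 1640 to 1700 CPM in DMSO, 1810 to 1960 in MI-503 and 1730 to 2050 in the combination. Markers of T cells (at most 0.184 CPM in sum, CD2 at 0) and of erythroid cells (at most 0.1) were near 0. Summed markers of epithelium were 6.11 to 9.64 CPM in DMSO, 9.49 to 10.9 in MI-503 and 5.91 to 8.32 in the combination, with 1 of 3 at 1 CPM or more in each group. Those of B cells (2.66 to 3.7, 2.78 to 3.88 and 1.64 to 3.11, MS4A1 at 0) had 1, 2 and 1 of 3 at that level, and those of fibroblasts (0.439 to 1.06, 0.695 to 0.971 and 1 to 2.34) had 0 of 3. The part of these markers in the results below was not tested.

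Reads that match several places had not been counted, so the contigs on which a gene lies limit its level. PSMB8 and PSMB9 are annotated on chromosome 6 and on 7 alternative contigs of the same region, and 100% of the 50-base windows of their exons recur on those contigs. PSME2 lies on chromosome 14 and on 1 fix patch, with 953 exon bases on the chromosome and 793 on the patch, and 8.48% of its windows recur elsewhere on the chromosomes. The patch itself could not be searched. The other 7 genes lie on 1 contig each, and none of their windows recur. PSME1, the partner of PSME2, is annotated on the same patch, and PSMB8-AS1, which is antisense to PSMB8, on the same alternative contigs as PSMB8. Both had 0 counts in every library. Of all genes on several contigs, 55.5% of 2156 had no count in any library, against 29% of 36401 genes on 1 contig. The levels of PSMB8, PSMB9 and PSME2 may therefore be understated by an unknown factor. A comparison of groups within 1 gene uses the same contigs throughout. Whether the counted share of its reads was the same in each group was not tested.

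In DMSO, PSMB10 stood highest per length at 121 ± 5.8 FPKM (SD, n = 4), followed by POMP at 107 ± 3.95, and the libraries of these neighbours met at 112. PSMB7 followed at 90.1 ± 2.92 and PSMB6 at 77.9 ± 4.93, without overlap. For PSMB7 this level depends on the length used: 39.5% of its exon bases also belong to LOC100129034, where reads had not been counted, and over the remaining exon bases PSMB7 would stand first, at 149 FPKM. PSME3 stood at 62.6 ± 3.02 and PSMB5 at 43.4 ± 2.71 FPKM. Far below these were PSMB8 at 11.2 ± 0.76 and PSME4 at 10.7 ± 0.648, whose libraries overlapped. PSME2 stood at 0.859 ± 0.227 FPKM. In the combination the order began with PSMB7 at 151 ± 14.9 FPKM (SD, n = 3) and PSMB6 at 123 ± 17.5, with POMP at 107 ± 13 and PSMB10 at 102 ± 15 behind them, and each of these overlapped with the next.

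**Figure D1:**
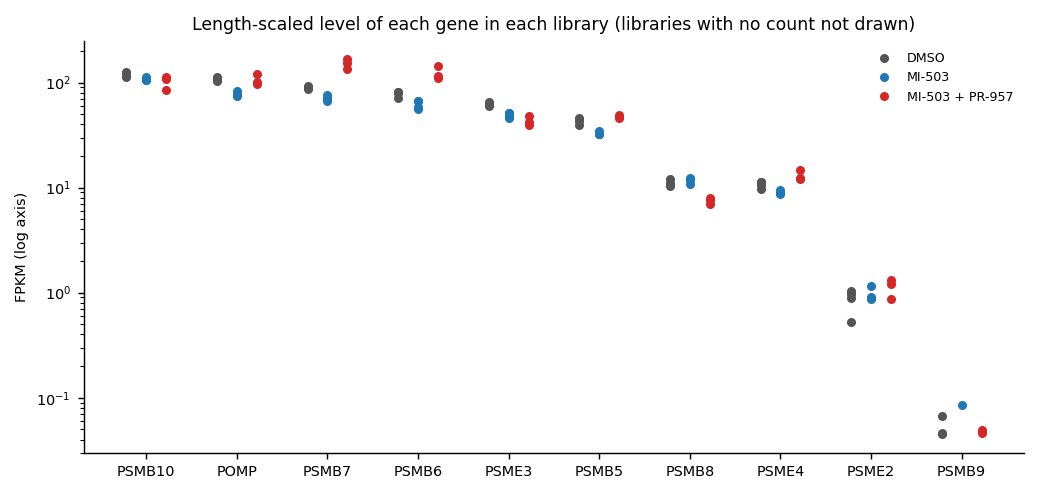
Level of each gene in FPKM on a log axis, with 1 point per library and genes ordered by their DMSO mean; libraries with no count are not drawn. PSMB10 leads in DMSO at a mean of 121 FPKM and PSMB7 in the combination at 151, whereas PSME2 lies near 1 FPKM and PSMB9 below 0.1.

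Among the constitutive catalytic subunits, PSMB5 carries the chymotrypsin-like site of the core. It lies at chr14:23025851-23035220 on the minus strand. Its CPM were 63.2, 65.5, 66.4 and 57.6 in DMSO, 47, 50, 47.6 and 46.8 in MI-503, and 66.4, 68.7 and 71.1 in the combination. Each MI-503 library lay below each library of the other groups, and the combination met the upper end of DMSO. In a model of all genes (edgeR's quasi-likelihood test, Benjamini-Hochberg adjustment over 14683 tested genes, called at an adjusted p under 0.05), PSMB5 fell by 0.40 on the log2 scale in MI-503 against DMSO (SE 0.049, adjusted p = 4.08e-06). In the combination PSMB5 was higher than in MI-503 by 0.52 (SE 0.052, adjusted p = 5.97e-07). Against DMSO the change of 0.12 was not called (95% interval 0.01 to 0.23, adjusted p = 0.052), and without combination replicate 1 it was called, at 0.17 (adjusted p = 0.011). The libraries are bulk cultures, so less RNA per cell and fewer cells with the RNA cannot be told apart, and the labels do not say whether replicates were separate cultures, so p-values measure only the spread between these libraries.

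PSMB6, the caspase-like subunit (chr17:4796144-4798503, plus strand), had 68.9, 61.7, 71.0 and 70.3 CPM in DMSO, 49.2, 50.6, 58.8 and 58.6 in MI-503, and 101, 96.0 and 124 in the combination. PSMB7, the trypsin-like subunit (chr9:124353465-124415442, minus strand), had 90.2, 86.9, 92.0 and 85.7 CPM in DMSO, 65.7, 71.0, 74.2 and 68.9 in MI-503, and 149, 134 and 164 in the combination. For both genes the 3 groups did not overlap, with MI-503 lowest and the combination highest. PSMB6 fell by 0.33 in MI-503 (SE 0.080, adjusted p = 0.00254) and stood 0.98 higher in the combination than in MI-503 (SE 0.083, adjusted p = 7.99e-08), which is 1.97-fold. PSMB7 fell by 0.34 in MI-503 (SE 0.056, adjusted p = 7.93e-05) and stood 1.09 higher in the combination than in MI-503 (SE 0.059, adjusted p = 3.16e-10), which is 2.13-fold. Against DMSO the combination was higher for PSMB6 by 0.66 (SE 0.083, adjusted p = 2.33e-06) and for PSMB7 by 0.75 (SE 0.059, adjusted p = 7.32e-09) beside 0.12 for PSMB5. Whether the changes of the 3 genes differ from each other was not tested.

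**Figure D2:**
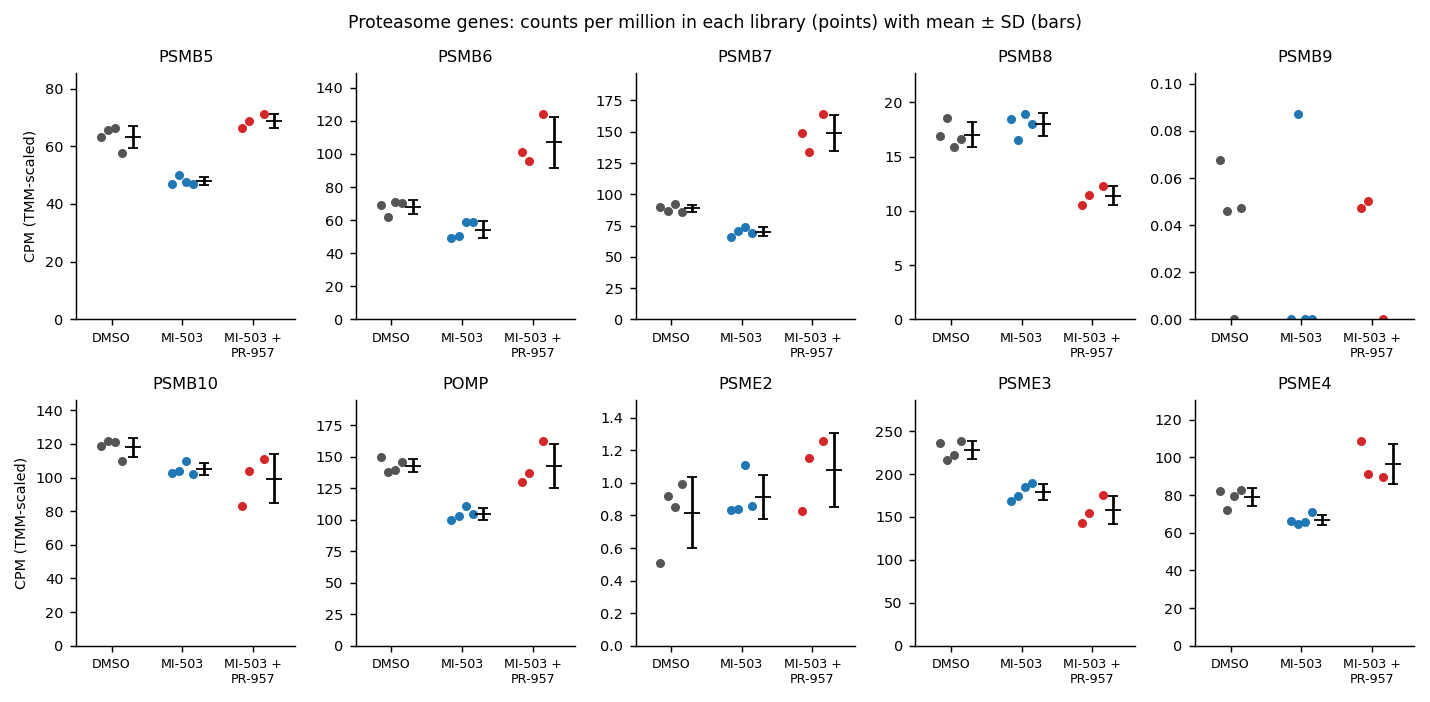
CPM of each gene (linear axis from 0, own scale per panel) by group, with 1 point per library and the mean ± SD beside them (none for PSMB9, which had at most 3 counts per library). PSMB6 and PSMB7 rise above all DMSO libraries in the combination, PSMB8 lies lowest there at 10.5 to 12.3 CPM, and PSME3 falls from 228 CPM in DMSO to 158 on average.

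Among the immunoproteasome subunits, PSMB8, the chymotrypsin-like subunit that PR-957 inhibits as a protein, moved the other way. It lies at chr6:32840717-32844679 on the minus strand. Its CPM were 16.9, 18.6, 15.9 and 16.6 in DMSO, 18.5, 16.5, 18.9 and 18.0 in MI-503, and 10.5, 11.5 and 12.3 in the combination. The DMSO and MI-503 libraries overlapped and each combination library lay below them. In MI-503 its change of 0.08 was not called (95% interval −0.08 to 0.23, adjusted p = 0.393). In the combination PSMB8 fell by 0.58 against DMSO (SE 0.082, adjusted p = 8.35e-06) and by 0.66 against MI-503 (SE 0.081, adjusted p = 5.27e-06). These values came from 4467 counts over the 11 libraries, and the leave-out of combination replicate 1 moved the fall to 0.49 against DMSO, still called. All exon windows of PSMB8 recur on other contigs, as given above, and whether the counted reads follow its total RNA was not tested.

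PSMB9, the immunoproteasome partner of PSMB6 (chr6:32854192-32859851, plus strand), was hardly counted, with 10 counts over 11 libraries. There were 2, 1, 0 and 1 counts in DMSO, 0, 3, 0 and 0 in MI-503, and 2, 1 and 0 in the combination. In the 5 libraries without a count, counting error alone allows a level of up to 0.115 to 0.14 CPM (3 counts), and no library exceeded 3 counts. PSMB9 failed the filter on low counts and was not tested, and with so few counts no difference between groups could be read. All of its exon windows recur on other contigs, as given above, so these counts need not reflect its level.

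PSMB10, the immunoproteasome partner of PSMB7 (chr16:67934506-67936850, minus strand), lies on 1 contig and was abundant. Its CPM were 119, 122, 121 and 110 in DMSO, 103, 104, 110 and 102 in MI-503, and 82.8, 104 and 111 in the combination, where replicate 1 lay apart from the other 2. PSMB10 fell by 0.17 in MI-503 (SE 0.069, adjusted p = 0.0469), a call that was lost in 13 of 19 alternative settings (adjusted p from 0.00872 to 0.184). Its fall of 0.25 in the combination against DMSO (SE 0.074, adjusted p = 0.00683) rested on replicate 1: without it the change was −0.11 (adjusted p = 0.0534). Between combination and MI-503 the change of −0.08 was not called (95% interval −0.24 to 0.08, adjusted p = 0.388), and it was 0.01 (adjusted p = 0.847) without combination replicate 1 and −0.21 (adjusted p = 0.0272) without combination replicate 4.

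**Figure D3:**
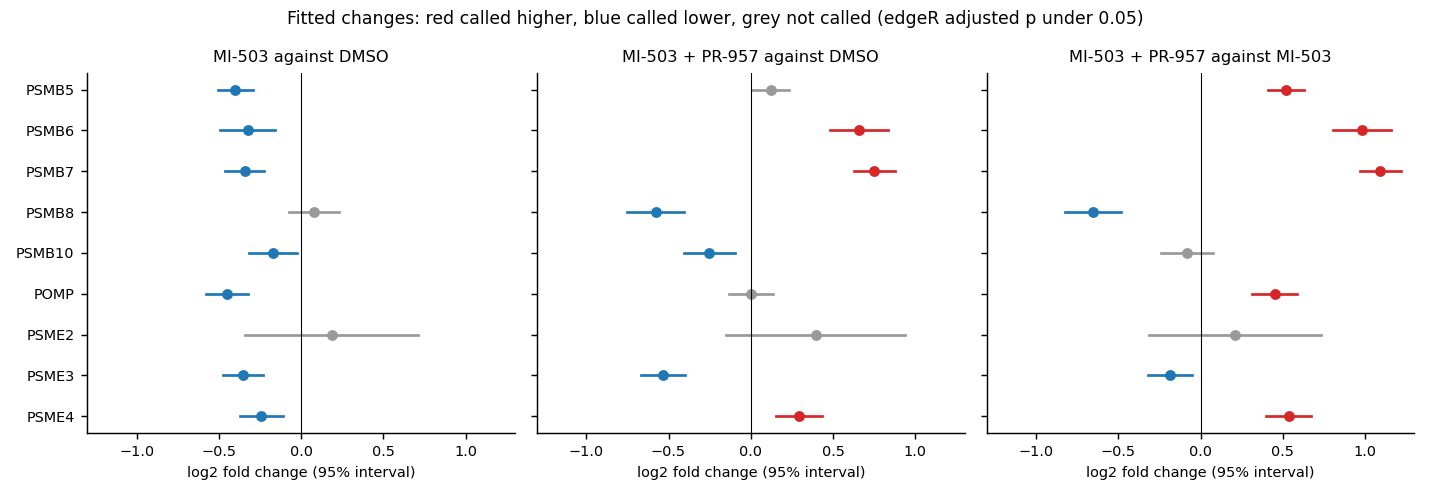
Fitted log2 fold changes (points) with 95% intervals (lines) of the 9 tested genes in the 3 comparisons, coloured by call. All 7 calls in MI-503 against DMSO lie below 0, whereas in the combination against MI-503 the 5 genes called higher reach 1.09 (PSMB7) and PSMB8 lies at −0.66.

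The ratio of an immunoproteasome subunit to the subunit it replaces was compared within libraries, where library scaling cancels. Per length, PSMB8 RNA came to 25.5, 27.1, 22.9 and 27.5% of PSMB5 RNA in DMSO, to 37.7, 31.4, 37.8 and 36.7% in MI-503, and to 15.1, 16.0 and 16.5% in the combination. PSMB8 may be undercounted, as given above, whereas no exon window of PSMB5 recurs, so these percentages may be understated by an unknown factor. The groups did not overlap, and MI-503 was highest. The log2 ratio was 0.48 higher in MI-503 than in DMSO (two-sided exact permutation test over 4 against 4 libraries, p = 0.0286, adjusted p = 0.0571 over 6 tests). It was 0.69 lower in the combination than in DMSO and 1.17 lower than in MI-503 (exact permutation p = 0.0571 each, adjusted p = 0.0571). With 4 against 3 libraries 0.0571 is the smallest p that this test allows, and with 4 against 4 it is 0.0286. After adjustment over the 6 tests none could go below 0.0571. No ratio could therefore pass the threshold, whatever its values.

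PSMB10 RNA came to 132, 141, 133 and 129% of PSMB7 RNA per length in DMSO, to 158, 148, 149 and 149% in MI-503, and to 55.9, 78.5 and 68.2% in the combination. PSMB10 was thus the more abundant of the pair without PR-957 and the less abundant with it, in every library, if all exon bases of PSMB7 are used as its length. Over the exon bases that PSMB7 does not share, its DMSO level of 149 FPKM would already exceed that of PSMB10, at 121. The log2 ratio differed by 0.17 in MI-503 against DMSO (exact permutation p = 0.0286, adjusted p = 0.0571). It was 1.00 lower in the combination than in DMSO and 1.18 lower than in MI-503 (exact permutation p = 0.0571 each, adjusted p = 0.0571). In the separate fits, PSMB7 rose in the combination and PSMB10 did not, as given above. The ratio of PSMB9 to PSMB6 was at most 0.148% in any library and was not tested.

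**Figure D4:**
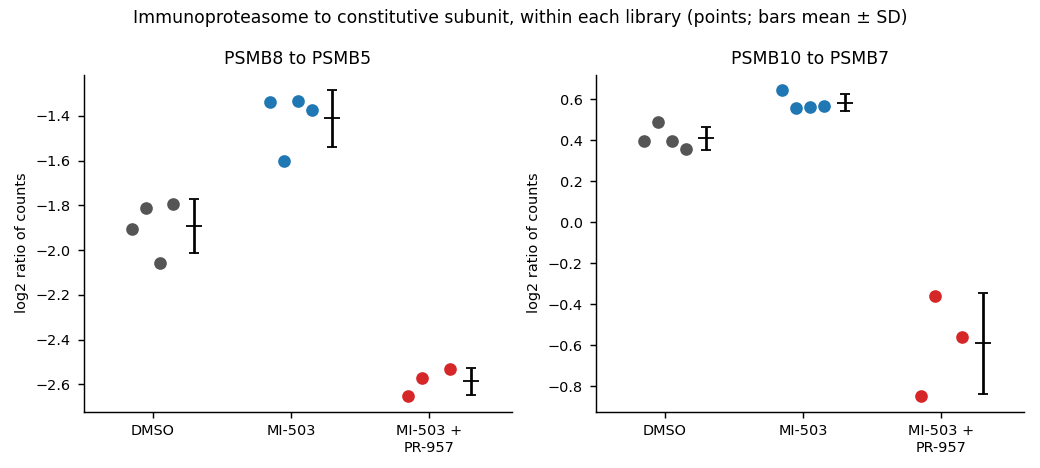
Log2 ratio of counts (no length correction, prior count 0.5) of PSMB8 to PSMB5 and of PSMB10 to PSMB7 in each library (points), with mean ± SD per group (bars). The combination lies lowest in both panels, with means of −2.59 and −0.59, and MI-503 highest, with means of −1.41 and 0.58.

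POMP, the chaperone that both kinds of core need for maturation of their beta rings, lies at chr13:28659130-28678959 on the plus strand. Its CPM were 150, 138, 140 and 146 in DMSO, 100, 103, 111 and 105 in MI-503, and 130, 137 and 163 in the combination. MI-503 lay below both other groups, which overlapped. POMP fell by 0.45 in MI-503 (SE 0.060, adjusted p = 8.52e-06) and stood 0.45 higher in the combination than in MI-503 (SE 0.064, adjusted p = 2.22e-05). Between the combination and DMSO its change was 0.00 (95% interval −0.14 to 0.14, adjusted p = 0.996).

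The activators differed among themselves. PSME3 (chr17:42833397-42843760, plus strand) had 236, 216, 222 and 239 CPM in DMSO, 168, 174, 185 and 189 in MI-503, and 143, 155 and 175 in the combination. DMSO stood above both treated groups, which overlapped. PSME3 fell by 0.35 in MI-503 (SE 0.058, adjusted p = 7.81e-05) and by 0.54 in the combination against DMSO (SE 0.063, adjusted p = 9.94e-07). The further fall of 0.19 from MI-503 to the combination (SE 0.063, adjusted p = 0.0226) lost its call without MI-503 replicate 3 (adjusted p = 0.0617) or 4 (0.0706). PSME4 (chr2:53864069-53970993, minus strand) had 82.4, 72.3, 79.3 and 82.5 CPM in DMSO, 66.2, 64.9, 65.6 and 70.9 in MI-503, and 109, 91.3 and 89.8 in the combination, and the groups did not overlap.

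PSME4 fell by 0.24 in MI-503 (SE 0.062, adjusted p = 0.00325) and rose by 0.29 in the combination against DMSO (SE 0.065, adjusted p = 0.000827), a difference of 0.54 between combination and MI-503 (SE 0.065, adjusted p = 4.71e-06). Without combination replicate 1, its highest library, it was still called, at 0.21 against DMSO (adjusted p = 0.00117). PSME2 (chr14:24143365-24146646, minus strand) had 15, 20, 18 and 21 counts in DMSO, 18, 29, 27 and 21 in MI-503, and 35, 23 and 34 in the combination, which is 0.506 to 1.26 CPM. Its changes of 0.19 in MI-503 and 0.40 in the combination against DMSO were not called (adjusted p = 0.565 and 0.189), and their 95% intervals of −0.34 to 0.71 and −0.15 to 0.94 leave room for changes as large as those of PSMB6. From MI-503 to the combination the change was 0.21 (95% interval −0.31 to 0.73, adjusted p = 0.514). Without combination replicate 1, its lowest combination library, PSME2 stood at 0.63 against DMSO (adjusted p = 0.0587) and at 0.39 against MI-503 (adjusted p = 0.247), not called in either. Over all alternatives the change ran from 0.19 to 0.63 against DMSO and from 0.03 to 0.39 against MI-503.

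Counted together, 7 of the 9 tested genes were called lower in MI-503 against DMSO and 0 higher (edgeR; also 0 higher at an unadjusted p under 0.05 and 0 by DESeq2, which called 6 lower), beside 51.4% of all tested genes called, 22% higher and 29.3% lower. Their median change was −0.33, against −0.03 over all genes. In the combination against DMSO 3 were called higher (PSMB6, PSMB7 and PSME4) and 3 lower (PSMB8, PSMB10 and PSME3), beside 64.5% of all genes called, 31.7% higher and 32.8% lower, so that their share was close to the background. Without combination replicate 1 these were 4 and 2. In the combination against MI-503 5 were called higher and 2 lower, beside 47.4% of all genes called, 23.6% higher and 23.8% lower. The 3 comparisons share their groups and are not independent of each other.

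The rest of the proteasome was set beside these genes by class. The shares of all tested genes called in each comparison are those given above. In the alpha ring 7 of 7 genes were called lower in MI-503 (median −0.36), with PSMA3 at −0.40 and PSMA2 at −0.38. In the combination 5 of 7 stood above DMSO, with PSMA1 at 0.80 and PSMA7 at 0.45, and 7 of 7 were higher than in MI-503 (median 0.53), with PSMA1 at 0.98 and PSMA5 at 0.64. The beta subunits without a catalytic site (3 of 4 tested, since PSMB3, which also lies on an alternative contig, failed the filter) were each lower in MI-503, with PSMB2 at −0.51 and PSMB1 at −0.49. In the combination each stood above DMSO, with PSMB4 at 0.79 and PSMB2 at 0.57, and above MI-503, with 1.10 and 1.08.

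The 19S ATPases, which unfold substrates (5 of 6 tested, without PSMC4), were all called lower in MI-503 (median −0.30) and all higher in the combination than in DMSO (median 0.74) and than in MI-503 (median 1.02). PSMC2 changed by −0.32 in MI-503, and in the combination by 0.79 against DMSO and 1.11 against MI-503. PSMC6 changed by −0.30 in MI-503 and by 1.05 from MI-503 to the combination, and PSMC1 by 0.76 in the combination against DMSO. Of 16 other 19S genes, 15 were called lower in MI-503, with PSMD12 at −0.40 and PSMD6 at −0.41. In the combination 11 were higher and 1 lower than in DMSO, with PSMD2 at 0.97 and PSMD11 at 1.05, and 14 were higher than in MI-503 and 0 lower (edgeR; 1 lower at an unadjusted p under 0.05 and 0 by DESeq2), with the ubiquitin receptor ADRM1 at 1.27 and the scaffold PSMD2 at 1.32. The counts of these 4 classes were the same without combination replicate 1.

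Assembly chaperones and regulators other than POMP did not move as 1 group in the combination. In MI-503 6 of 10 were called lower and 0 higher, with the deubiquitinase UCHL5 at −0.46 and the chaperone PSMG1 at −0.54. At an unadjusted p under 0.05 (edgeR), 9 were lower and 0 higher there. In the combination against DMSO 2 were called higher and 7 lower, with ECPAS, a protein that binds 26S proteasomes, at 0.80 and UCHL5 at −0.72. Against MI-503 2 were higher, ECPAS at 0.97 and the deubiquitinase USP14 at 0.60, and 4 lower. The 4 were PSMG1 (−0.29), PSMG2 (−0.16), PSMG4 (−0.31) and UCHL5 (−0.25), of which the PSMG genes encode chaperones of core assembly; they were singled out after their values had been seen, as was the contrast with POMP, at 0.45.

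RNA of NFE2L1, NFE2L2 and 2 genes whose proteins process NFE2L1 was also measured, and the proteins were not. Of all tested genes, 22% were called higher and 29.3% lower in MI-503 against DMSO. In the combination these shares were 31.7% and 32.8% against DMSO, and 23.6% and 23.8% against MI-503. The list counts below were not tested against these shares. In MI-503 1 of 4 was called higher, the deglycosylase NGLY1 at 0.18, and 1 lower, the protease DDI2 at −0.15. In the combination against DMSO 3 were higher and 1 lower, with NGLY1 at 0.33 and NFE2L1 at 0.22, and against MI-503 3 were higher, with NFE2L1 at 0.29 and NFE2L2 at 0.29. Of 10 genes of interferon signalling and antigen presentation 8 were tested, since IRF9 and TAP1, which lie on several contigs, failed the filter. Of the 8 tested, B2M lies on 2 contigs, TAPBP on 5 and TAP2 on 8, so their levels may be understated too. Whether the counted share of their reads was the same in each group was not tested. In MI-503 4 were called higher, with B2M, the light chain of MHC class I, at 0.33 and STAT2 at 0.54, and 1 lower. In the combination against DMSO 3 were higher, with STAT2 at 1.47, and 1 lower, and against MI-503 2 were higher, with STAT2 at 0.93, and 1 lower, B2M at −0.18. Without combination replicate 1, the interferon list had 5 higher and 1 lower against DMSO and 3 higher and 2 lower against MI-503, and the NFE2L1 list 2 higher against MI-503. STAT2 rose in the combination, where PSMB8 fell and PSMB10 had no call that held without replicate 1. The gene of this list called lower against DMSO was IRF1, at −0.19 in MI-503 and −0.30 in the combination. IRF1 was named after its values had been seen. Any link of STAT2 or IRF1 to PSMB8 and PSMB10 was not tested. Of the remaining family members PSME1, PSMB11 and PSMA8, none passed the filter.

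**Figure D5:**
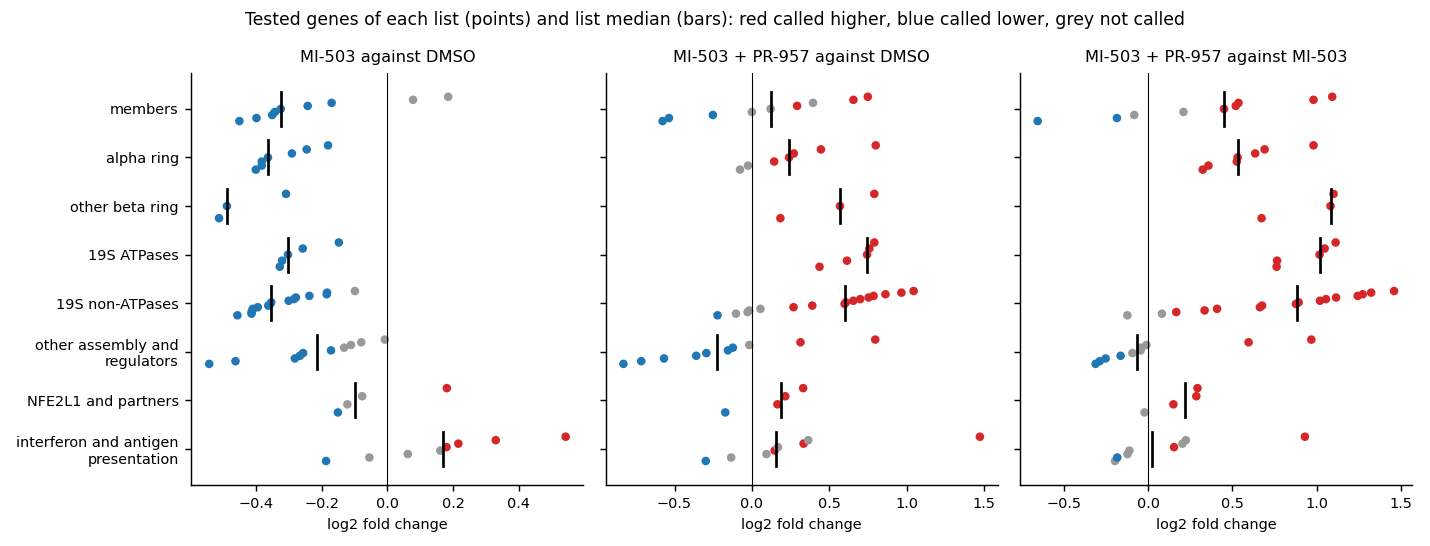
Log2 fold changes of the tested genes (points, coloured by call) and list medians (bars) for the 10 genes described and 7 further lists, in the 3 comparisons on separate axes. The core and 19S lists lie below 0 in MI-503 and their medians lie between 0.53 and 1.08 in the combination against MI-503, whereas the list of other assembly factors and regulators has a median of −0.07 there.

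The genes whose log2 CPM followed PSMB5 and PSMB8 most closely over the 11 libraries, among 10038 other genes with 5 CPM or more on average, were named as a description. For PSMB5 these were DPH3, TMEM161A, NUMA1, JMJD6 and GPD2, with Pearson r from 0.961 to 0.971. For PSMB8 they were FAM78A, BRI3BP, PALM2AKAP2, SLC43A1 and PRSS57, with r from 0.962 to 0.976. The 11 libraries fall into 3 groups, which the genes share as a source of likeness. PRSS57 changed by 0.05 in MI-503 and by −0.91 in the combination against DMSO, beside 0.08 and −0.58 for PSMB8. No gene of the proteasome was among either set of 5.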

How the data were processed

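Counts of RNA fragments per gene from 11 libraries were analysed. Per the file headers, the authors made these raw counts with featureCounts 2.0.1, taking hg38 RefSeq exons without strand, and left out fragments that mapped to several places or overlapped several genes. Per the labels, libraries were prepared from polyA RNA, and the submitters' processing notes name Trimmomatic 0.39, STAR 2.7.10a and DESeq2. No source used here gives the rule by which alignments were filtered. The joined table differed from the single-library files in 0 cells, and 0 columns belonged to no sample. The authors' own tables of differential expression (log2 fold changes and p-values) were not used.

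Counts were tested with edgeR 4.0.16 in R 4.3.3: filterByExpr (minimum count 10, minimum total 15, large n 10), TMM factors (0.957 to 1.056), 1 model of all 11 libraries with a mean per group, and quasi-likelihood tests, two-sided, adjusted over 14683 genes (8 residual degrees of freedom). The edgeR steps were run on simulated counts in which far fewer genes changed than were called here, and in MI-503 only. The share of changed genes that had to be recovered was lowered after the first run. Scaling under broad change was not tested. DESeq2 1.42.0, limma 3.58.1 and other settings served as alternatives. FPKM used the exon length on the primary chromosome. Ratios used a prior count of 0.5 and exact permutation tests (scipy 1.17.1).

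The genes described, the gene lists and the marker lists (myeloid leukemia cells, T cells, B cells, erythroid cells, epithelium, fibroblasts) were chosen with earlier results of these data known. Named genes were all 10 members, PSME1 and PSMB8-AS1, the 2 genes of each list with the smallest adjusted p in each comparison, and the 5 genes most like PSMB5 and PSMB8. 1 gene that this rule names is not reported here. Intervals and floors cover counting error only where they come from counts of 1 library.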

Additional observations from a re-analysis of the deposited data

Results flagged for a closer look

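Of 22 groups of 4 libraries examined, 3 held a library whose gap to the nearest other exceeded 0.829 of the range of the group, where chance gives about 1 group in 20. PSME2 in MI-503 stood at 1.11 CPM in replicate 3, whereas the other libraries lay between 0.833 and 0.859 CPM. The log2 ratio of PSMB8 to PSMB5 in MI-503 was −1.60 in replicate 2, against −1.38 to −1.33 in the others. The log2 ratio of PSMB10 to PSMB7 in MI-503 was 0.65 in replicate 1, against 0.56 to 0.57 in the others. The groups of 3 combination libraries were too small for this rule.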

How the results depend on the processing

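The number of the 10 genes called stayed within 6 to 7 in MI-503 against DMSO, 6 to 7 in the combination against DMSO and 6 to 8 in the combination against MI-503 under other scaling factors, filters, tools and thresholds and when each library was left out. For POMP in the combination against DMSO, which had no call, the sign of the change of 0.00 depended on the setting: it was 0.011 with RLE factors, 0.067 with upper-quartile factors, 0.025 without a filter, 0.044 with a stricter filter, 0.011 with DESeq2, 0.018 with only the compared groups, and from −0.105 to 0.087 when 1 library was left out. PSMB10 in the combination against MI-503 ran from −0.209 to 0.013 when 1 library was left out, and PSME2 in MI-503 against DMSO from −0.020 to 0.296. The cause was not tested. Leaving out 1 library left the log2 ratio of PSMB8 to PSMB5 in MI-503 against DMSO between 0.425 and 0.543 and that of PSMB10 to PSMB7 between 0.153 and 0.201, where the exact permutation p could not go below 0.0571. PSMB5 in the combination against DMSO was called in 9 of 19 alternatives. With the exon length summed over all contigs, DMSO levels were 1.39 FPKM for PSMB8, 0.00495 for PSMB9 and 0.469 for PSME2. Lists without combination replicate 1, and PSMB7 over exon bases not shared with another gene, were added after the data had been seen.

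With the replicate number as a block, 7 genes were called in each of the comparisons (7, 6 and 7 without it), PSMB5 in the combination against DMSO passed the threshold (0.13, edgeR adjusted p = 0.0417), POMP there stood at 0.003, and the ratios kept 0.480 and 0.174, with p = 0.125, the smallest that 4 pairs allow in an exact permutation test. The block called 7630, 9312 and 6813 of all genes. Deviations of same-numbered libraries from their group means correlated with r from −0.102 to 0.144, not every library correlated best with its own number, and the labels give no pairing.

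PSMB9 (10 counts) and PSME2 (261 counts over 11 libraries) gave few counts, and how far uncounted reads from other contigs or depth account for this was not tested. Comparisons with the combination rest on 3 libraries.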
